A study of Homo sapiens with 4 samples.

Results

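The genes described here are 8 genes of the mitochondrial, or intrinsic, route of cell death: BBC3, PMAIP1, BAX, BCL2L1, APAF1, TP53AIP1, AEN and TRIAP1, out of 59679 genes annotated by RefSeq on chromosomes 1 to 22, X and Y. They were taken by name as targets of p53 in this pathway, with BCL2L1 added as its anti-apoptotic counterpart, and a p53 peak counted for a gene when it overlapped the gene or came within 10 kb of either side. Chromatin immunoprecipitation with sequencing (ChIP-seq) had been run with the p53 antibody DO-1, which binds the N-terminal part of p53, on spheroids of HCT116, a colorectal carcinoma line, at passages 13 to 18. The spheroids grew in medium with a serum-free B27 supplement, epidermal growth factor (20 ng/ml) and basic fibroblast growth factor (20 ng/ml). A group labelled p53-R273H, with an exchange of a DNA-contacting arginine of p53, was set beside a wildtype control labelled ctrl-19-7. Each genotype had 1 ChIP library and 1 input library, and the labels leave unsaid how the mutant cells were made, whether a wildtype allele remained, and whether either line is a single clone.

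The deposited data were 1 peak list per genotype, with 2008 R273H and 2059 wildtype peaks. Read depth is unknown. As a genotype had a single ChIP library, differences between the lists have no replicate check, and no p-value is given. The score of a peak is the authors' value for that list, so it ranks peaks within the list and is not compared between lists. The lists hold no expression, so the cell line could not be checked against marker genes.

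Mitochondrial apoptosis begins when proteins of the BCL2 family open pores in the outer mitochondrial membrane and cytochrome c escapes into the cytosol. BH3-only proteins such as PUMA and NOXA set this off, BAX forms the pore, and BCL-XL, the product of BCL2L1, holds it shut. Released cytochrome c assembles APAF1 into the apoptosome, which activates caspase-9, and p53 is known to switch on many genes along this route after DNA damage.

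Peaks stood at 5 of the 8 genes. BBC3, BCL2L1, AEN and TRIAP1 had a peak in both lists, BAX had one in the wildtype list only, and PMAIP1, APAF1 and TP53AIP1 had none in either list. Thus 4 of 8 genes had an R273H peak, where 2.36% of all annotated genes did, and 5 of 8 had a wildtype peak, where 3.48% did. A peak in both lists was found at 4 of 8 genes, against 1.03% of all genes. A wildtype peak alone was found at 1 of 8, against 2.44%, and no gene of the set had an R273H peak alone, against 1.32%. All 8 are protein-coding, and among 20037 protein-coding genes the shares were 3.09% for the R273H list, 4.83% for the wildtype list and 1.28% for both. The genes were chosen as p53 targets with earlier results of these data known, so these counts are descriptions.

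The 10 kb limit did not decide any of these assignments. All 13 peaks overlapped the gene itself, and the closest peak beyond the limit was an R273H peak 88476 bp from BBC3 with a score of 59.8. All 5 R273H peaks shared at least 1 bp with a wildtype peak, where 21.9% of all R273H peaks and 70.7% of those scoring at least 100 did. An overlap with the R273H list was found for 6 of the 8 wildtype peaks, where 21.2% of all wildtype peaks had one. All 5 R273H peaks scored at least 100, as did 19.5% of that list, and 7 of the 8 wildtype peaks did, as did 27.5% of theirs. Among those 7, 5 overlapped an R273H peak, against 64.0% of wildtype peaks scoring at least 100.

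**Figure D1:**
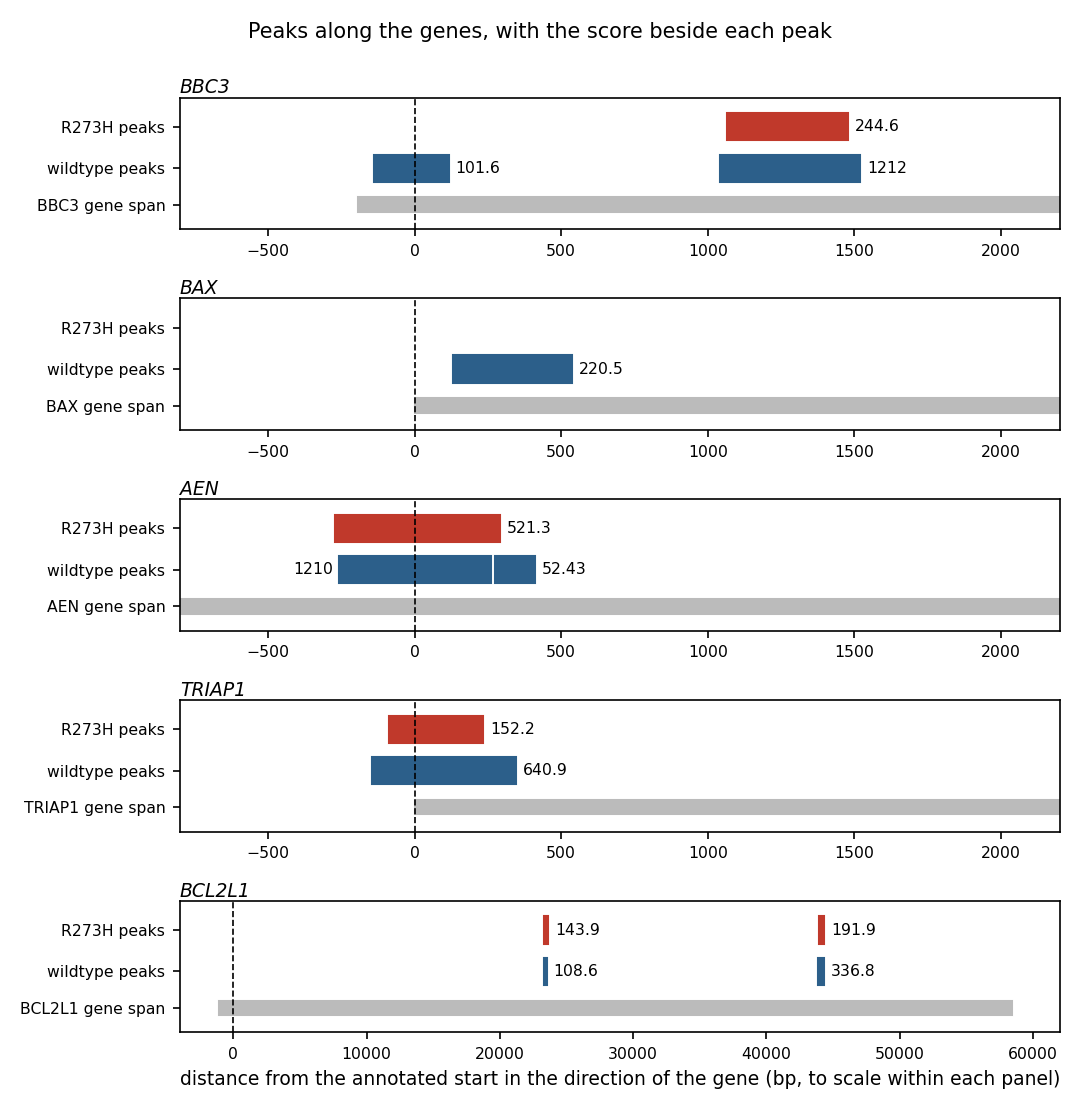
Peaks of the R273H list (red) and the wildtype list (blue) along the 5 genes with a peak, drawn to scale within each panel as distance in bp from an annotated start (dashed line) in the direction of the gene; the grey bar is the gene and the number beside a peak is the authors' score, to 4 digits. The peaks of AEN and TRIAP1 lie across the start in both lists, BBC3 has its higher wildtype peak and its R273H peak downstream of the start, BAX has a wildtype peak only, and both peak pairs of BCL2L1 lie deep inside the gene.

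BBC3 encodes PUMA, a BH3-only protein that neutralises the anti-apoptotic BCL2 proteins. The gene occupies chr19:47220824-47232860 on the minus strand of hg38. Its R273H peak (chr19:47231190-47231602) was 413 bp wide, scored 245 and ranked 144 of 2008. Its main wildtype peak (chr19:47231149-47231626) was 478 bp wide, scored 1212 and ranked 86 of 2059. The R273H peak lay wholly within the wildtype peak, and their midpoints were 8.5 bp apart. The RefSeq promoter table gives 1 start for BBC3, at base 47232667, and the R273H peak ran from 1065 to 1477 bp downstream of it. As the gene reaches base 47232860, this start is an internal one.

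A further wildtype peak (chr19:47232551-47232805, score 102, rank 559) covered that start. It ran from 138 bp before the start to 116 bp after it and began 924 bases beyond the main peak. No R273H peak overlapped it, and the nearest, the BBC3 peak itself, was 949 bp away. BBC3 thus had 2 wildtype peaks and 1 R273H peak. More than 1 wildtype peak was found at 3 of the 8 genes (BBC3, AEN and BCL2L1) and at 0.575% of all genes, and more than 1 R273H peak at BCL2L1 alone of the 8 and at 0.322% of all genes. Most of all genes had no peak: 343 of the 2076 with a wildtype peak, and 192 of the 1407 with an R273H peak, had more than 1. No protein-coding gene other than BBC3 lay within 10 kb of these peaks.

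PMAIP1 encodes NOXA, a BH3-only protein that acts mainly on MCL1, and it had no peak. From the gene (chr18:59899996-59904305) the nearest R273H peak was 743779 bp away with a score of 51.3, and the nearest wildtype peak was 1769542 bp away with a score of 55.0. With only peaks no lower than the median score of their list, the nearest were 41410202 bp (R273H) and 1919183 bp (wildtype) away. Under this limit the R273H distance was 4788393 bp for APAF1 and 620609 bp for TP53AIP1. The nearest peaks of both full lists lay on the lower-coordinate side, and neither overlapped a peak of the other list. Of protein-coding genes, 44.8% had a nearer R273H peak than PMAIP1 and 83.9% a nearer wildtype peak. Within 1 Mb of PMAIP1 there was 1 R273H peak and 0 wildtype peaks, on a chromosome that held 29 R273H and 36 wildtype peaks in all.

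BAX, the pore-forming protein of the outer mitochondrial membrane, was the gene of the set that differed in presence between the lists. Its wildtype peak (chr19:48955006-48955410) was 405 bp wide, scored 220 and ranked 351 of 2059. The peak ran from 131 to 535 bp downstream of the annotated start of the gene (chr19:48954875-48961798, plus strand). The nearest R273H peak lay 1191809 bp from the gene, on the higher-coordinate side, with a score of 55.0. Within 1 Mb of BAX the R273H list held 0 peaks and the wildtype list 3. Of the wildtype main peaks at the 5 genes, that of BAX had the lowest score. The peak also lay 9899 bp from FTL, the gene of the ferritin light chain.

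BCL2L1, whose product BCL-XL protects the outer mitochondrial membrane, had 2 peaks in each list, and each R273H peak had a wildtype partner. The gene spans 59512 bp (chr20:31664452-31723963, minus strand) and has 2 starts in the promoter table. The peak pair farther from the starts was chr20:31678521-31678955 in the R273H list (score 192, rank 182) and chr20:31678587-31678974 in the wildtype list (score 337, rank 264). These peaks shared 369 bp, with midpoints 42.5 bp apart. The other pair was chr20:31699254-31699579 in the R273H list (score 144, rank 256) and chr20:31699367-31699572 in the wildtype list (score 109, rank 539). Here the wildtype peak lay wholly within the R273H peak, the midpoints were 53 bp apart, and 206 bp were shared.

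In both lists the pair farther from the starts had the higher score. The peaks of that pair had midpoints 44130 bp (R273H) and 44087.5 bp (wildtype) downstream of the nearer start, and those of the other pair 23451.5 and 23398.5 bp. No peak of either list lay within 10 kb of an end of BCL2L1 or of AEN, whereas the peaks of BBC3, BAX and TRIAP1 did. All 4 peaks also lay inside BCL2L1-AS1, a long noncoding RNA gene (chr20:31675108-31716844), so a peak here cannot be assigned to 1 of the 2 genes by position. No other protein-coding gene lay within 10 kb.

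APAF1, the scaffold of the apoptosome, had no peak in either list although it is the longest gene of the set at 90144 bp (chr12:98645290-98735433). The nearest R273H peak lay 3119983 bp away (score 51.7) and the nearest wildtype peak 2697854 bp away (score 106), on opposite sides of the gene. Of protein-coding genes, 86.3% had a nearer R273H peak and 92.3% a nearer wildtype peak. Neither list held a peak within 1 Mb of it.

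TP53AIP1 encodes a p53-induced protein that locates to mitochondria, and it also had no peak (chr11:128934731-128942871). The nearest R273H peak was 620609 bp away with a score of 126, and the nearest wildtype peak 2720353 bp away with a score of 60.1. That R273H peak was the only one within 1 Mb and overlapped no wildtype peak. Of protein-coding genes, 40.1% had a nearer R273H peak and 92.4% a nearer wildtype peak.

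**Figure D2:**
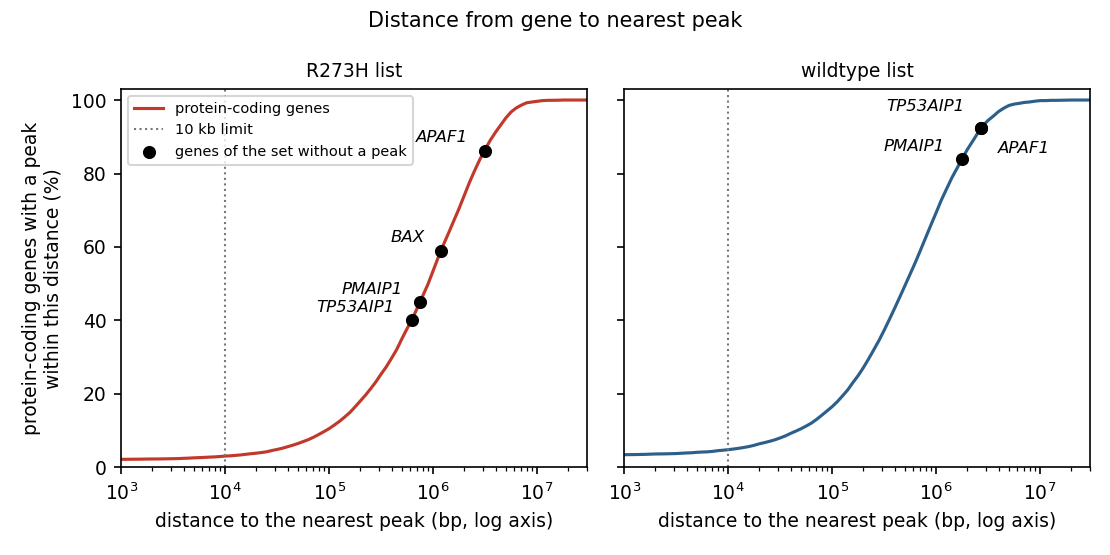
Share of protein-coding genes (percent) whose nearest peak lies within the distance on the x axis (bp, log axis), for the R273H list (red) and the wildtype list (blue); the dotted line marks 10 kb and black points mark genes of the set without a peak in that list. In the R273H list TP53AIP1, PMAIP1 and BAX sit on the middle of the curve and APAF1 near its top (86.3%), and in the wildtype list PMAIP1, APAF1 and TP53AIP1 sit between 83.9% and 92.4%.

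Over all 8 genes the median distance to the nearest peak was 310304.5 bp for R273H peaks and 0 bp for wildtype peaks. The R273H median falls between 4 genes at 0 bp and TP53AIP1 at 620609 bp, so no gene lies near it. Over all annotated genes the medians were 973494 and 608902 bp, and over protein-coding genes 895512 and 511726 bp. For the 3 genes without a peak in either list the medians were 743779 bp (R273H) and 2697854 bp (wildtype). A missing peak says only that none was listed: at unknown depth, binding below the authors' threshold would not appear, and the lowest-numbered peaks of both lists were not analysed here.

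AEN encodes an apoptosis-enhancing nuclease that is induced by p53 and cuts DNA and RNA. Its peaks had the highest R273H score of the set and, just below BBC3, the next highest wildtype score. The R273H peak (chr15:88621067-88621631) was 565 bp wide, scored 521 and ranked 77 of 2008. The main wildtype peak (chr15:88621082-88621599) was 518 bp wide, scored 1209.99 and ranked 88 of 2059. It lay wholly within the R273H peak, with midpoints 8.5 bp apart.

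These peaks were centred on the annotated start of AEN at base 88621340, their midpoints falling 9 bp (R273H) and 0.5 bp (wildtype) after it. The gene (chr15:88604683-88632281, plus strand) reaches 16384 bp below the R273H peak in coordinate, so the start under the peaks is an internal one. A small wildtype peak (chr15:88621615-88621748, score 52.4, rank 1792) followed 15 bases after the main one. It overlapped the R273H peak by 17 bp, so the single R273H peak touched both wildtype peaks. No other protein-coding gene lay within 10 kb.

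The 250 bases before this start of AEN are shown because peaks of both lists cover all of them. The p53 response element is a pair of 10-letter motifs with a spacer of 0 to 13 bases, reads the same on both strands, and was searched in the RefSeq promoter windows (GRCh38.p14, 250 bases before to 50 after each start). Capitals mark the best match, chr15:88621306-88621325, which lay 34 to 15 bases before the start. The stretch is chr15:88621090-88621339 on the plus strand.
AEN upstream: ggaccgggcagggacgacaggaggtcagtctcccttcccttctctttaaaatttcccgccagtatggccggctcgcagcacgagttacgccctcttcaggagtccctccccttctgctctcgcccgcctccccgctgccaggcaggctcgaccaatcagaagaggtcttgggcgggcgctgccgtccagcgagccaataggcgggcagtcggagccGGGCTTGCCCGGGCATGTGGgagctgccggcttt

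The middle of the AEN match lay 33.5 bp from the midpoint of the R273H peak and 25 bp from that of the main wildtype peak. It had 2 mismatches in 20 letters, both in its second part. Of 35116 promoter windows, 7.82% held a match with at most 2 mismatches. Of the 21 windows that peaks of both lists overlapped, 8 did (38.1%), AEN among them; windows of neighbouring starts can overlap one another. A match describes letters and does not show binding.

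TRIAP1 encodes a small mitochondrial protein that p53 induces and that favours cell survival. Its R273H peak (chr12:120446151-120446471) was 321 bp wide, scored 152 and ranked 234 of 2008. Its wildtype peak (chr12:120446038-120446530) was 493 bp wide, scored 641 and ranked 164 of 2059. The R273H peak lay wholly within the wildtype peak, and the midpoints were 27 bp apart. TRIAP1 (chr12:120443964-120446384, minus strand) begins at base 120446384, and the R273H peak ran from 87 bp before this start to 233 bp after it. The wildtype peak ran from 146 bp before to 346 bp after.

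The peaks at TRIAP1 also covered the start of GATC, which encodes a subunit of the mitochondrial glutamyl-tRNA amidotransferase and begins at base 120446444 on the other side. The 59 bases between the 2 genes lay inside the peaks of both lists and are printed for that reason (chr12:120446385-120446443, minus strand). COX6A1, a cytochrome c oxidase subunit gene, lay 5421 bp from the R273H peak and 5308 bp from the wildtype peak. By position the peaks can therefore not be assigned to TRIAP1 alone.
TRIAP1 to GATC: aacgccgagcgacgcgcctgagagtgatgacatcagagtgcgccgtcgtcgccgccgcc

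The best matches to the p53 response element are set side by side for AEN and TRIAP1, whose promoter windows lay under peaks of both lists, and for PMAIP1, which had no peak. Capitals mark bases that match the element and lower case marks mismatches. All 3 have no spacer, but among equally good matches the search kept the shortest spacer and then the first position.
AEN best match: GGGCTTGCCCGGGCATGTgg
TRIAP1 best match: AGGCATGCaCGGACATGaag
PMAIP1 best match: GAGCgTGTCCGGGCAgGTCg

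The TRIAP1 match (chr12:120446337-120446356, minus strand) lay 28 to 47 bases after the start, with 4 mismatches, and 84.2% of all windows held a match with at most 4. Its middle was 35.5 bp from the midpoint of the R273H peak and 62.5 bp from that of the wildtype peak. It holds the core CATG in both parts, with 6 bases between the cores. This arrangement, which reads the same on both strands, occurred in 0.373% of the 35116 windows, and CATG alone, which is part of it, in 54.9%. Of the 10 promoter windows of the 8 genes, the one of TRIAP1 was the only one with this pair. The PMAIP1 match (chr18:59899811-59899830, plus strand) lay 185 to 166 bases before the start with 3 mismatches, and 39.1% of all windows held a match with at most 3.

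No window of the other genes held a match with fewer mismatches than AEN. The best match had 3 mismatches at BBC3, 4 at BAX, 4 at APAF1, 3 and 3 at the 2 starts of TP53AIP1, and 5 and 3 at the 2 starts of BCL2L1. The BAX window ended 82 bp before the wildtype peak there, and the windows of BCL2L1 lay at least 23240 bp from its peaks, so their letters do not describe those peaks. At BBC3 the match (chr19:47232813-47232840) lay outside the wildtype peak that overlapped the window, which ended at base 47232805. The BBC3 window lay 1016 bp from the R273H peak, and the letters under that peak and the main wildtype peak were not searched. R273H peaks overlapped the promoter windows of AEN and TRIAP1, where 0.0854% of all windows were overlapped and 0.0598% by peaks of both lists. Wildtype peaks overlapped those of AEN, TRIAP1 and BBC3, against 0.185%. The median GC content was 65.5% over the 10 windows and 58.7% over all windows.

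**Figure D3:**
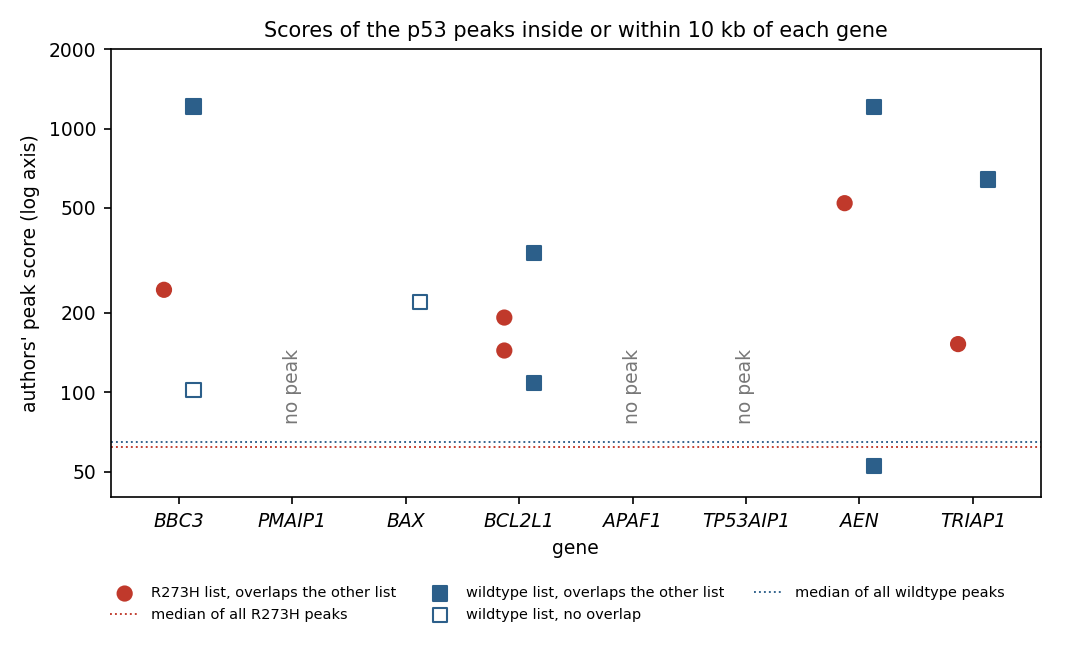
Authors' peak scores (log axis) of the 13 peaks at the 8 genes, with circles for the R273H list and squares for the wildtype list; filled symbols overlap a peak of the other list, open squares do not, and dotted lines give the median score of each whole list. All peaks stand above the median of their list except the small second wildtype peak of AEN at 52.4, and the 2 open squares are the BAX peak and the second BBC3 peak.

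The genes were also ordered within each list by their highest peak. In the R273H list this peak scored 521 at AEN, 245 at BBC3, 192 at BCL2L1 and 152 at TRIAP1. In the wildtype list the order was BBC3 at 1212, AEN at 1209.99, TRIAP1 at 641, BCL2L1 at 337 and BAX at 220. TRIAP1 stood below BCL2L1 in the R273H list and above it in the wildtype list. The score carries no error in either list, so neighbours in an order cannot be said to differ. Over all R273H peaks the median score was 61.9, and over all wildtype peaks 64.9.

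Few genes of the rest of the pathway had a peak at the 10 kb limit, and their shares were not tested against those of other genes. The 40 other genes listed around the pathway include some outside the mitochondrial route, such as CASP8. Of these 40, 2 had an R273H peak (5.00%, against 2.36% of all and 3.09% of protein-coding genes) and 2 a wildtype peak (5.00%, against 3.48% and 4.83%). None had both, against 1.03% of all genes. The R273H peaks lay 9484 bp from BAK1, a further pore-forming effector (score 56.1), and 5295 bp from STEAP3, a p53-induced metalloreductase gene (score 66.0). The wildtype peaks lay inside CASP8, the initiator caspase of death receptors (score 78.6), and inside BIRC3, an inhibitor of apoptosis gene (score 56.9). None of these 4 peaks overlapped a peak of the other list.

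By role the groups are too small to be read against shares of 2.36% and 3.48% of all genes. None of 5 anti-apoptotic BCL2 family genes and none of 6 BH3-only genes had a peak in either list. One list's peak was found at 1 of 2 pore-forming effectors, 1 of 7 apoptosome and caspase genes, 1 of 8 released factors and inhibitors and 1 of 8 further p53-linked death genes. None of 4 mitochondrial channel genes had one. With only peaks scoring at least 100, the shares of all genes were 0.813% (R273H) and 1.28% (wildtype). None of the 40 genes had a peak at this limit, which is near those shares, and the 4 and 5 genes of the set kept theirs. Whether the set and the rest of the pathway differ was not tested.

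**Figure D4:**
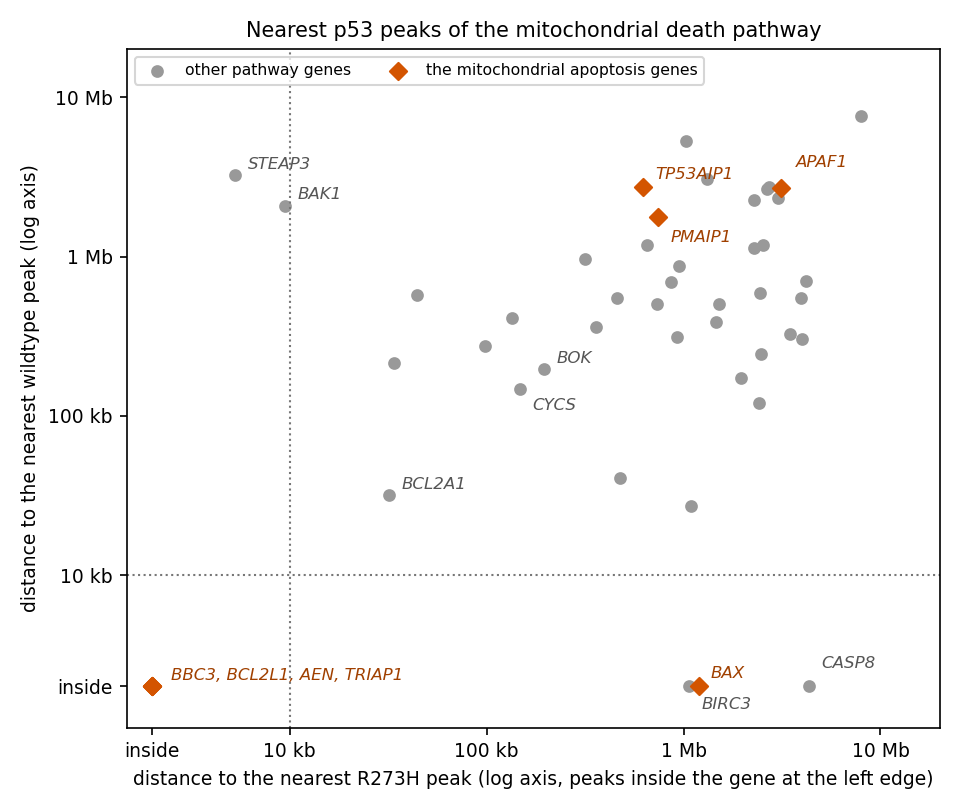
Distance from each gene to its nearest R273H peak (x axis) and nearest wildtype peak (y axis), both log axes with peaks inside the gene placed at the lower end and dotted lines at 10 kb; orange diamonds are the 8 genes described here and grey points the 40 other pathway genes. BBC3, BCL2L1, AEN and TRIAP1 coincide in the lower left corner, where no grey point lies, and BAX lies on the lower edge, 1191809 bp from its nearest R273H peak.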

How the data were processed

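The files held the chromosome, start, end, name and score of each peak, 1 list per ChIP library; the score is the authors', was used as deposited, and has no stated scale. Per the submitters' processing notes, Bowtie 1.2.2, MACS, HOMER and hg38 were named without roles. The threshold for peaks, the role of the input libraries and any pooling were not given in the sources used here. Lists were matched to ChIP samples by title, since the sample descriptions name the lists in another order (both ChIP samples the R273H list, both inputs the wildtype list). Peak numbers ran without gaps from 193 (R273H) and 228 (wildtype); the 192 and 227 lower numbers were not analysed here.

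Starts were made 1-based. Genes and promoter sequences came from RefSeq tables of GRCh38.p14, the assembly of hg38, and all 8 genes and 40 pathway genes matched by symbol. The gene table has no exons, so exon, intron and untranslated region are not stated. The genes and lists were chosen with earlier results of these data known. Named are all 8 genes, pathway genes with a peak, and protein-coding genes within 10 kb of a peak of the set. No test was run. Python 3.11.15 with pandas 2.3.3 and numpy 2.4.6 was used, and interval and motif functions were tested on simulated data. Alternatives were other distances, score limits, overlap rules and gene types.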

Additional observations from a re-analysis of the deposited data

How the results depend on the processing

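The counts of 4 genes with an R273H peak, 5 with a wildtype peak and 4 with both were the same inside the gene, within 2, 50 and 100 kb, with peaks no lower than their list's median score and with peaks scoring at least 100. Over the same distances the shares of all genes rose from 1.24% (R273H) and 1.86% (wildtype) inside the gene to 10.1% and 14.2% within 100 kb. Counting peaks near a gene end (10 kb) alone, the counts were 2, 3 and 2, since AEN and BCL2L1 dropped out. Of all genes, 1088 (R273H, 1.82%) and 1640 (wildtype, 2.75%) had such a peak. Within 2 kb of a start in the promoter table, an alternative added after the data were seen, the counts were 3, 4 and 3, since BCL2L1 dropped out. Such a peak was found at 0.144% (R273H) and 0.292% (wildtype) of all 59679 genes, but that table covers only 27305 genes. The 5 shared R273H peaks stayed 5 under every overlap rule tried. The 6 shared wildtype peaks were 5 with a reciprocal overlap of 50%, midpoints within 200 bp or peaks at or above the median score, and 7 with gaps of up to 1000 bp.

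The other pathway genes with an R273H peak numbered 0 inside the gene, 0 within 2 kb, 5 within 50 kb, 6 within 100 kb, 1 at or above the median score, 0 at scores of at least 100 and 0 near a start. Those with a wildtype peak numbered 5 within 50 kb, 5 within 100 kb, 1 at or above the median score, 0 at scores of at least 100 and 0 near a start. Over all genes the R273H and wildtype counts were 1407 and 2076. They were 738 and 1113 inside genes and 910 and 1367 within 2 kb. Within 50 kb they were 3675 and 5276 (6.16% and 8.84%), and within 100 kb 6015 and 8465 (10.1% and 14.2%). They were 864 and 1207 at or above the median score, 485 and 763 at scores of at least 100, 86 and 174 near a start, and 620 and 967 among protein-coding genes.

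The median distance for PMAIP1, APAF1 and TP53AIP1 was 743846 bp (R273H) and 2698043.5 bp (wildtype) to the peak midpoint. With R273H peaks at or above the median score it was 4788393 bp, because fewer peaks remained. No paired analysis was possible because each genotype had 1 ChIP library and no result comes from a test.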

Other observations

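Some pathway genes without a peak within 10 kb had a shared peak farther away. BCL2A1, an anti-apoptotic BCL2 family gene, lay 31958 bp from an R273H peak scoring 369 and 31870 bp from the overlapping wildtype peak, which scored 1228. CYCS, the cytochrome c gene, lay 147076 bp from an R273H peak scoring 152 and 147038 bp from its wildtype partner scoring 654. BOK, a BAX-related gene, lay 195357 bp from an R273H peak scoring 301 and 195403 bp from its wildtype partner scoring 517. Any R273H peak lay within 35481 bp of 5.2% of protein-coding genes, and any wildtype peak within that distance of 8.6%. Within 199526 bp the shares were 18.1% and 27.1%. BCL2A1, CYCS and BOK were picked with their values in view, and the distances do not tie the peaks to the genes.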
